A study of Rattus norvegicus with 6 samples.

Results

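The 10 genes described here, AC132671.2, Adam11, Hs3st2, Bank1, Fbxw7, Lrtm2, Vwa3a, Insc, Ap3b2 and Capsl, were grouped as less-studied genes of the vestibular hair cell (HC), and they are 10 of 32883 genes in the table. The tissue was sequenced in bulk, so these data do not show which cells express them. AC132671.2 (ENSRNOG00000055680) is the gene that the study names Vsig10l2. By staining RNA in the tissue, the study found Vsig10l2 in many but not all HCs. It also reports less of this RNA per HC in cultured epithelium given streptomycin, without significant loss of HCs. The genes were picked by name with the readout of these libraries in view, because their counts were lower in streptomycin-treated rats than in control rats. Of the 10, 9 (all but Bank1) are among 34 genes that the study lists as lower in all of its exposure models, a list partly chosen on these same animals. From the literature, the study marks these 9 as selective for HCs over supporting cells. The difference between the groups is therefore given for the 10 genes as a description, with no test, and tests are kept for measures that did not select them.

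Gene expression was measured by RNA-seq in Long-Evans rats. The Control group (n = 3) received PBS, and the STREP group (n = 3) received streptomycin, an aminoglycoside antibiotic toxic to HCs, at 500 mg/kg by subcutaneous injection daily for 6 weeks from postnatal day 21. Replicates 1 and 2 were male and replicate 3 was female in both groups. By the study's account each library came from 1 animal, with 2 utricles and 6 cristae pooled, so the tissue held HCs together with supporting cells and nerve endings. The titles of STREP replicates 1 and 2 share a number whose meaning is not given, and they are counted here as 2 animals. The labels name no genetic change in these animals, and all 6 libraries carry the same batch label. Total counts ran from 48568191 to 59906048 in Control and from 29333584 to 33744909 in STREP libraries, and values below are normalised counts, which are counts divided by a size factor of the library. The lowest raw count of any of the 10 genes was 51, for Bank1 in STREP replicate 3. Such values are levels of RNA in the pooled tissue, so fewer HCs and less RNA per HC cannot be told apart.

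HCs turn deflection of the stereocilia into transmitter release onto afferent terminals of the vestibular nerve. In chronic ototoxicity a HC can lose its junctions and synapses while it is still in the epithelium, and genes that only HCs express are often used to follow that course. The 10 genes belong to unrelated families. Adam11, AC132671.2 and Lrtm2 encode membrane proteins of the cell surface, Hs3st2 a Golgi enzyme that modifies heparan sulfate, Ap3b2 a subunit of a vesicle coat, Insc a polarity adaptor, Fbxw7 a receptor of a ubiquitin ligase, Bank1 a signalling adaptor, Capsl a calcium-binding protein and Vwa3a a protein with a von Willebrand factor A domain.

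Promoter sequence, taken as the 250 bases before the transcription start in RefSeq on the GRCr8 assembly, was found for 8 of the 10 genes, and AC132671.2 and Adam11 had no entry. Both strands were searched for TATAAA, the TATA box, for CAGCTG and CAGATG, which are E-box forms bound by basic helix-loop-helix factors, for GTTGCC, which is part of the X-box bound by RFX factors, for TAATTA, a homeodomain core, for AAATCA, which holds the core read by GFI1, and for TGACGTCA, the cAMP response element bound by CREB and ATF proteins. The 5 promoters with a match are shown because they are the ones that carry a searched motif, each 5′ to 3′ on the strand of its gene, with the match in capitals.
Hs3st2, chr1:185387213-185387462, plus strand: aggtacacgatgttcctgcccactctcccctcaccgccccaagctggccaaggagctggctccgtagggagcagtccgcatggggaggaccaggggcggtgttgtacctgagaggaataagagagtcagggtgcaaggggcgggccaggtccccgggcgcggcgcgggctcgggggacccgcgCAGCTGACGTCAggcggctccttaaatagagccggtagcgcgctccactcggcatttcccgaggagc
Lrtm2, chr4:154172678-154172927, minus strand: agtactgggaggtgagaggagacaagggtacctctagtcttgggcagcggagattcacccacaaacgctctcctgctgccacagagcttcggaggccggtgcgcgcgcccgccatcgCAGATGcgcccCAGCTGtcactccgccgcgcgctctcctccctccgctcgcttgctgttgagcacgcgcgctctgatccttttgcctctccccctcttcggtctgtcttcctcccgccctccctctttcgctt
Insc, chr1:178427173-178427422, plus strand: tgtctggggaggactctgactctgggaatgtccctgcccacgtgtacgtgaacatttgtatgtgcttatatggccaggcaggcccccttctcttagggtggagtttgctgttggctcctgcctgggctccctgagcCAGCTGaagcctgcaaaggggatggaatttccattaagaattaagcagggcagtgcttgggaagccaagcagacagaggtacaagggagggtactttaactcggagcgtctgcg
Bank1, chr2:227473716-227473965, minus strand: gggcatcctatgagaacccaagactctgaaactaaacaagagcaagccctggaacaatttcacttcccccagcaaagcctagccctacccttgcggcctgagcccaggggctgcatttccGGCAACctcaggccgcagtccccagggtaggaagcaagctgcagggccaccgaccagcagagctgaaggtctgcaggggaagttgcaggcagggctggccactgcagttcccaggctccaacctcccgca
Capsl, chr2:60121912-60122161, plus strand: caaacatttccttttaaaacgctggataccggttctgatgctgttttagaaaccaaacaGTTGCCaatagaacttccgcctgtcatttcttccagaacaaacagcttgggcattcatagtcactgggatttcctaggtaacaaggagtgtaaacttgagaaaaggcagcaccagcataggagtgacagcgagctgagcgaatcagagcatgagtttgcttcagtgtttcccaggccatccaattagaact
CAGCTG was in 3 of the 8 promoters, Hs3st2, Lrtm2 and Insc, against 12.0% of 33469 rat promoters of the same length. In Hs3st2 it began 67 bases before the start and overlapped TGACGTCA, which began 63 bases before it and which 1.59% of all promoters held. GTTGCC was found in Capsl, 191 bases before the start, and in Bank1, 130 bases before it as the reverse complement, against 9.89% of promoters. Lrtm2 also held CAGATG, present in 14.0% of promoters. None of the 8 held TATAAA (12.9% of promoters), TAATTA (4.86%) or AAATCA (12.7%), and no searched motif was in the promoters of Ap3b2, Vwa3a or Fbxw7. No motif was in more than 3 of the 8. Base composition was spread as widely, from 44.4% GC in Capsl to 67.6% in Hs3st2, with a median of 51.2% over all promoters. These matches describe letters in a window and are not binding sites.

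Every one of the 10 genes was lower in all 3 STREP animals than in all 3 Control animals. Among all 16250 genes tested, 8.63% had all STREP animals below all Control animals. By the thresholds of the study (adjusted p under 0.05 and a fold change over 1.5, DESeq2) all 10 were called lower, against 1.37% of genes tested called lower and 1.87% called higher, and nothing is read from these counts because the same contrast selected the genes. The median log2 fold change of the 10 genes was -1.19, and that of all genes tested was 0.0069. Mean levels in STREP animals ran from 15.4% of the Control mean for AC132671.2 to 58.7% for Capsl. Ranked by fold change among the 223 genes called lower, AC132671.2 was number 26 and Capsl number 168.

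**Figure D1:**
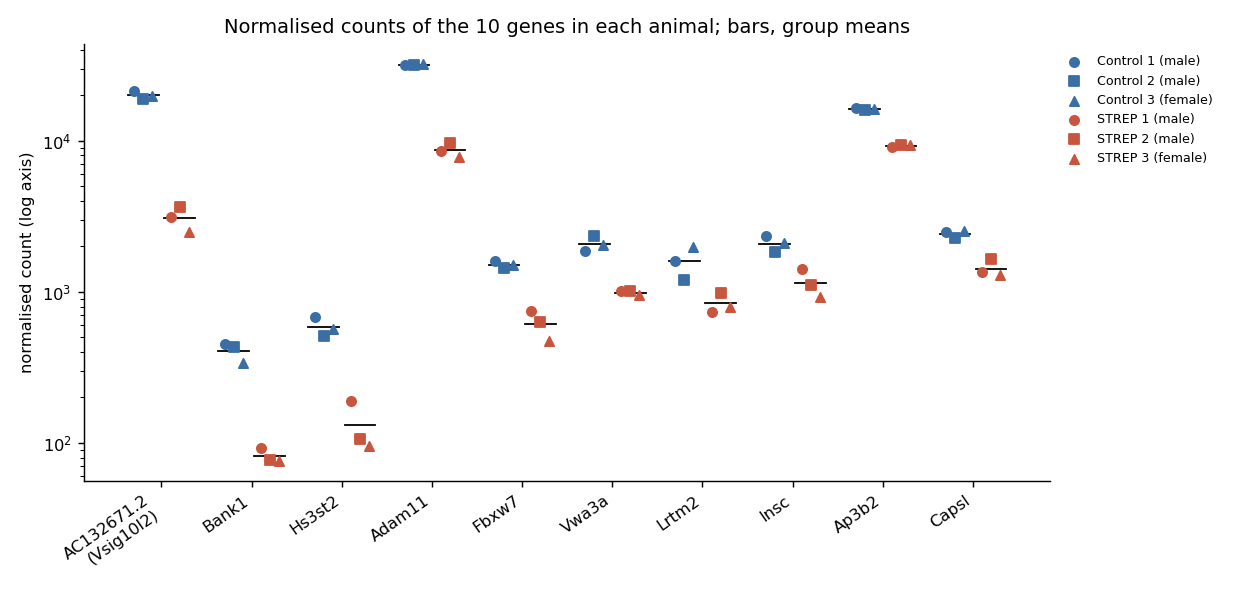
Normalised counts (vertical log axis) of the 10 genes in each of 3 Control animals (blue) and 3 STREP animals (red), with circles and squares for males, triangles for females and bars for group means. Each gene has its 3 red points below its 3 blue points, with the widest gap for AC132671.2 and the narrowest for Lrtm2.

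Among the surface proteins, AC132671.2 (Vsig10l2), predicted from its sequence to carry immunoglobulin domains, had 21203, 18945 and 19924 normalised counts in the Control animals, given here and below in the order of replicates 1 to 3. In the STREP animals it had 3113, 3619 and 2509. The lowest Control value was 5.24 times the highest STREP value. Leaving out each animal in turn moved the log2 fold change of -2.70 (SE 0.16) only between -2.83 and -2.57.

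Adam11 (ENSRNOG00000002753), a member of the ADAM family that lacks protease activity and is known for its part in placing potassium channels at synapses of the cerebellum, had 31659, 31727 and 32292 normalised counts in Control animals. The STREP animals had 8542, 9727 and 7836. The Control values lay within a coefficient of variation (CV) of 1.09%, and the STREP values were spread 10.98%. The STREP mean was 27.3% of the Control mean, a log2 fold change of -1.87 (SE 0.13).

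Lrtm2, a leucine-rich repeat transmembrane protein, had 1607, 1194 and 1977 normalised counts in Control animals and 731, 990 and 794 in STREP animals. It had the largest spread of the 10 genes in Control animals (CV 24.6%), and Control replicate 2 and STREP replicate 2 were only 1.21-fold apart. The log2 fold change was -0.93 (SE 0.22), and it shrank to -0.74 without Control replicate 3 and to -0.70 in males alone, and Lrtm2 was called in neither. In RefSeq, Lrtm2 overlaps Cacna2d4, and the strand setting of the counting is not given, so reads of the pair could be mixed. Cacna2d4 itself averaged 26.9 normalised counts in Control and 18.7 in STREP animals.

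Hs3st2, a 3-O-sulfotransferase that adds a rare sulfate to heparan sulfate chains, had 684, 510 and 566 normalised counts in Control animals and 190, 106 and 95.7 in STREP animals. STREP replicate 1 lay above the other STREP animals, and the CV of 39.8% was the highest in that group. The log2 fold change was -2.17 (SE 0.30), and -2.54 without STREP replicate 1.

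Bank1, an adaptor with ankyrin repeats best known from B cell receptor signalling, had 450, 428 and 339 normalised counts in Control animals and 93.2, 76.7 and 76.3 in STREP animals. The log2 fold change was -2.31 (SE 0.28), on raw counts of 51 to 71 in STREP animals. The B cell markers Ms4a1 and Pax5 were near 0, with means of 2.55 and 0.28 normalised counts in Control animals and 0 in STREP animals. Cd22, another marker of that list, averaged 61.8 in Control and 41.9 in STREP animals. The part of B cells in the level of Bank1 was not tested.

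Fbxw7, the subunit that picks substrates such as cyclin E, MYC, JUN and NOTCH for the SCF ubiquitin ligase, had 1589, 1449 and 1509 normalised counts in Control animals and 748, 632 and 470 in STREP animals. The Control animals lay close together (CV 4.64%) and the STREP animals did not (CV 22.7%), with STREP replicate 3 lowest. The log2 fold change was -1.30 (SE 0.20), and -1.14 without STREP replicate 3. Fbxw7 overlaps Dear in RefSeq, a gene that averaged 31.8 and 20.5 normalised counts in Control and STREP animals.

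Ap3b2, the beta subunit of the neuronal form of the AP-3 adaptor, which sorts proteins into synaptic vesicles and lysosome-related organelles, had 16448, 15996 and 16275 normalised counts in Control animals. The STREP animals had 9081, 9312 and 9388. It was the most even of the 10 genes within STREP animals (CV 1.73%), and with a CV of 1.40% in Control animals its log2 fold change of -0.81 (SE 0.11) moved only between -0.82 and -0.80 when single animals were left out.

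Insc, the mammalian inscuteable, which links the LGN protein to the PAR complex in cell polarity and is found with LGN and Gαi at the bare apical zone of HCs, had 2333, 1828 and 2096 normalised counts in Control animals. The STREP animals had 1423, 1110 and 922. STREP replicate 3 was at 44.2% of the Control mean and STREP replicate 1 at 68.2%. The log2 fold change was -0.86 (SE 0.20), and Insc was not called when library totals replaced the size factors.

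Vwa3a had 1858, 2352 and 2048 normalised counts in Control animals and 1007.9, 1007.3 and 954.4 in STREP animals, so the STREP animals differed by less (CV 3.10%) than the Control animals (CV 12.0%). The log2 fold change was -1.07 (SE 0.16). Capsl, the calcyphosine-like protein with EF-hand calcium-binding sites, had 2477, 2263 and 2543 normalised counts in Control animals and 1351, 1638 and 1288 in STREP animals. Its log2 fold change of -0.77 (SE 0.16) was the smallest of the 10, and it too was not called with library totals as size factors.

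**Figure D2:**
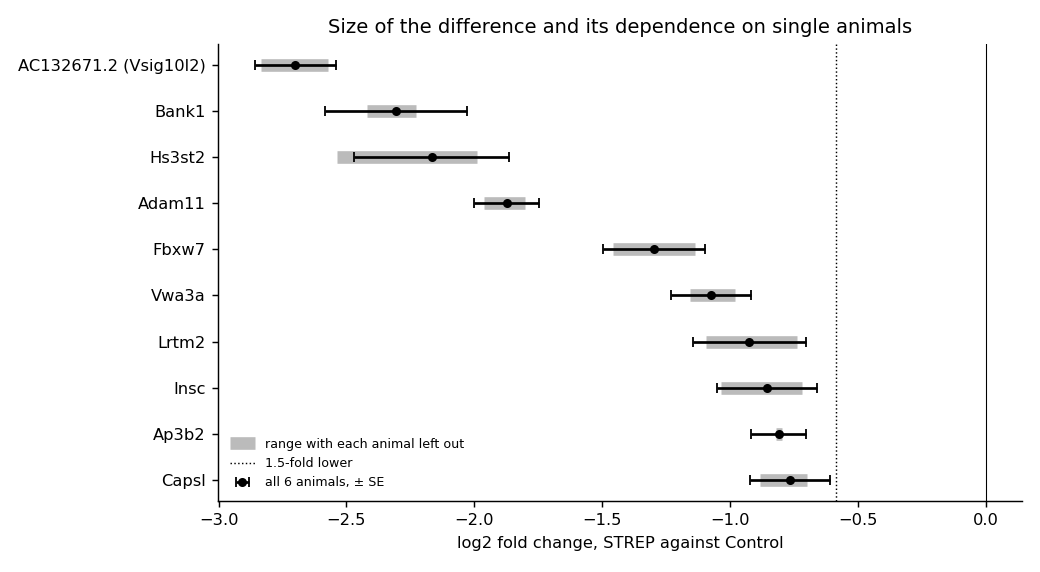
Log2 fold change of each gene, STREP against Control (horizontal axis; points, all 6 animals with SE; grey bands, range when 1 animal is left out; dotted line, 1.5-fold lower). AC132671.2 lies at -2.70 and Capsl at -0.77, and the widest grey bands are those of Hs3st2, Lrtm2, Fbxw7 and Insc.

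The animals were not ordered alike in the 10 genes, but 1 STREP animal was often lowest. STREP replicate 3 had the lowest STREP value in 8 of 10 genes, with Lrtm2 and Ap3b2 as the exceptions. The share over all genes is not given here, so this order is not read as particular to the 10 genes. Control replicate 2 had the lowest Control value in 7 of 10. STREP replicate 3 also stood apart in its library, with 21.8% of its counts in the 10 most abundant genes against 13.3% to 19.0% in the others, and the smallest size factor. The part of these library features in the order of the animals was not tested. Without STREP replicate 3 the log2 fold changes ran from -2.57 for AC132671.2 to -0.70 for Capsl.

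The labelled tissue was checked with 12 HC markers, all of which were detected. Of these, 1 was called, Gfi1, a transcription factor of HCs, which rose from 1525 to 3505 normalised counts (log2 fold change 1.20, SE 0.21, DESeq2 adjusted p = 2.37e-06). Myo7a, the unconventional myosin used as the standard HC marker, averaged 4896 and 3482 normalised counts (log2 fold change -0.49, adjusted p = 0.0162 in DESeq2), and for Lhfpl5, a subunit of the mechanotransduction complex, the log2 fold change was -0.45 (adjusted p = 0.0161), both short of the 1.5-fold threshold. The remaining 9, among them Myo6, Pou4f3, Otof and Espn, had adjusted p-values of 0.256 or more. The study, by contrast, counts Myo7a and Lhfpl5 among the genes lower in its streptomycin comparison at the same thresholds. Why the calls differ was not tested. The summed markers ranged from 139875 to 147461 in Control and from 125266 to 184551 in STREP animals, with a log2 ratio of the means of 0.011 (exact two-sided permutation p = 1.0). The highest sum, in STREP replicate 3, held 101030 normalised counts of Ush1c, the harmonin gene, and without this animal the log2 ratio was -0.20.

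Set against the mean log2 level of the 12 HC markers in the same animal, all 10 genes were lower in every STREP animal than in every Control animal, as were 6.27% of all genes tested, and again nothing is read from this count because the genes were selected on the same difference. The marker mean itself lay between -0.08 and 0.09 in Control and between -0.13 and 0.01 in STREP animals on the log2 scale, relative to the Control mean. Of the 12 markers, 8 had a log2 fold change below 0, and the median was -0.16. The mean also holds Gfi1, at 1.20, so a mean near 0 does not show that most markers were unchanged. The mean of the STREP animals on this scale was -2.67 for AC132671.2, -2.24 for Bank1, -2.17 for Hs3st2 and -1.84 for Adam11. It was -1.28 for Fbxw7, -1.02 for Vwa3a, -0.86 for Lrtm2, -0.83 for Insc, -0.77 for Ap3b2 and -0.73 for Capsl. With Myo7a alone as the reference, chosen after the data had been seen, the differences were smaller by the amount that Myo7a lay below the marker mean in STREP animals. They were then -2.23 for AC132671.2, -1.80 for Bank1, -1.73 for Hs3st2 and -1.39 for Adam11. They were -0.83 for Fbxw7, -0.58 for Vwa3a, -0.42 for Lrtm2, -0.38 for Insc, -0.32 for Ap3b2 and -0.28 for Capsl. The change of reference moves every gene by the same amount, so the size of each difference depends on which marker stands for the HC.

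**Figure D3:**
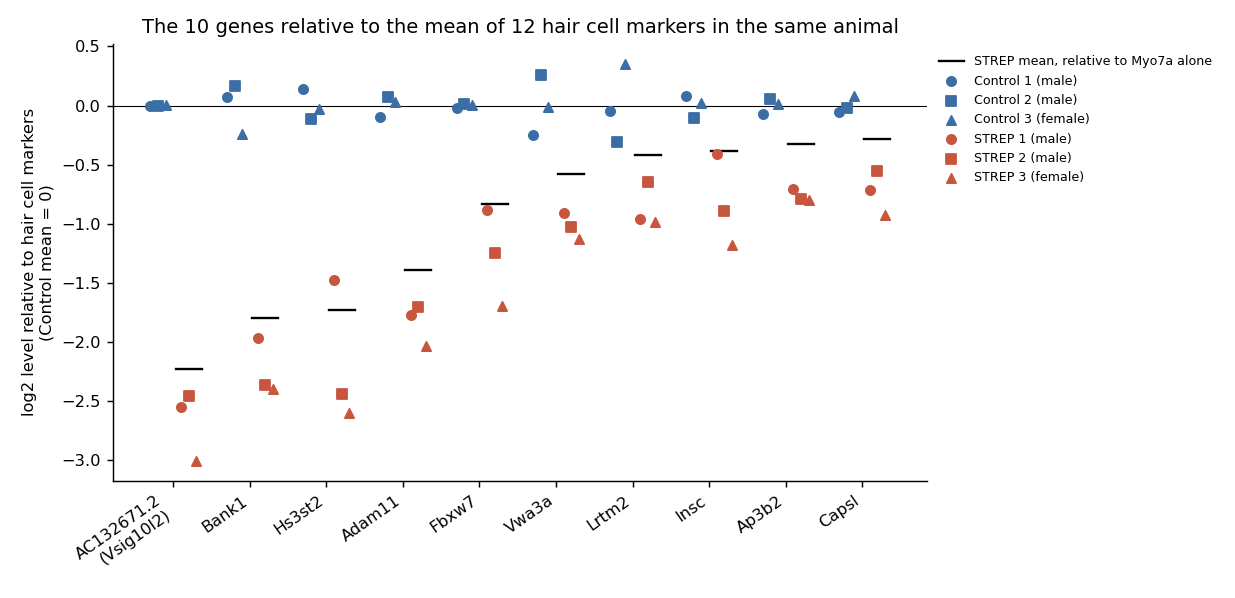
Level of each gene relative to the mean log2 level of 12 HC markers in the same animal (vertical axis, log2, Control mean at 0), for Control (blue) and STREP (red) animals, with black bars for the STREP mean when Myo7a is the reference. Red points lie below blue points for each gene, and the black bars of Ap3b2 and Capsl lie at -0.32 and -0.28.

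Markers of supporting cells and of neurons, and genes of motile cilia, were measured beside the 10 genes. Which cells of the pooled tissue, HCs included, held the RNA of the motile cilium genes was not tested. Of 10 supporting cell markers 0 were called (DESeq2, 10 tested), and their sums ran from 484950 to 606836 in Control and from 563309 to 989913 in STREP animals, the highest in STREP replicate 3 (exact permutation p = 0.3). Of 12 neuron markers 1 was called, Tubb3, a neuronal tubulin, which was higher at 302 against 124 normalised counts (log2 fold change 1.28, adjusted p = 0.0182), and which was called in 2 of 6 omissions. The neuron sums ran from 5410 to 6017 in Control and from 5095 to 5451 in STREP animals (exact permutation p = 0.2). Of 14 motile cilium genes tested, 1 was called, the axonemal dynein Dnah5, which fell to 683 from 1160 normalised counts (log2 fold change -0.76, adjusted p = 0.00112). The cilium sums did not overlap, at 27778 to 28775 in Control and 24633 to 27270 in STREP animals (exact permutation p = 0.1, the smallest this design allows, and 0.5 after Benjamini-Hochberg adjustment over 5 lists), and Rsph4a was at 0. The part of any of these lists in the levels of the 10 genes was not tested.

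The question whether the relatives of each gene moved with it uses genes that did not select the 10. Of 123 family members, partners and substrates listed, 119 were in the table and 114 were tested. DESeq2 called 2 lower (Vwa5b1 and Calml4) and 3 higher (Notch1, Klf5 and Gnai1), and the median log2 fold change was 0.05 beside 0.0069 for all genes tested. These are 1.75% called lower and 2.63% called higher, near the 1.37% and 1.87% of all genes tested, so the calls below are values of single genes and show nothing about their lists. In 7 of the 11 lists 0 genes were called.

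In the AP-3 list of 9 genes, 0 were called. Ap3b1, the ubiquitous beta subunit that Ap3b2 replaces in neurons, had 2053, 1761 and 1936 normalised counts in Control and 2214, 1969 and 1901 in STREP animals, and these groups overlapped. Its log2 fold change was 0.08 (95% interval -0.20 to 0.37), beside -0.81 for Ap3b2. Ap3m2, the mu subunit that goes with Ap3b2 in the neuronal form, and Ap3d1, the delta subunit of both forms, had log2 fold changes of 0.06 and 0.17 and were not called.

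Of 17 tested genes of heparan sulfate modification 0 were called. Hs3st1, the sulfotransferase paralog, had 3806, 4231 and 3241 normalised counts in Control and 2619, 2821 and 4226 in STREP animals, with a log2 fold change of -0.22 (95% interval -0.62 to 0.17). The groups overlapped through STREP replicate 3. Hs3st4 was not analysed here.

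Of 14 ADAM and LGI genes 0 were called. The inactive paralogs of Adam11 had few counts, Adam22 with means of 31.3 and 85.9 and Adam23 with 41.1 and 16.2 normalised counts in Control and STREP animals. Their log2 fold changes of 1.45 (95% interval -0.04 to 2.94) and -1.33 (95% interval -2.76 to 0.11) were not called, and the intervals are too wide to compare them with Adam11. Lgi4, a secreted ligand of the LGI family, had a log2 fold change of 0.08.

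Of 12 genes of the SCF list, which holds subunits, other F-box proteins and the deubiquitinase Usp28, 0 were called, with log2 fold changes of -0.34 for Fbxw2 (95% interval -0.64 to -0.03) and 0.30 for Fbxw11 (95% interval -0.07 to 0.66). Among 8 substrates of FBXW7 tested, 2 rose at the level of RNA. The receptor gene Notch1 went from 7188, 6881 and 8325 normalised counts in Control to 12503, 12729 and 17198 in STREP animals (log2 fold change 0.92, SE 0.16, DESeq2 adjusted p = 3.23e-06), and it was called in each of 7 other settings and 6 omissions. Klf5, a zinc finger transcription factor, went from 364, 505 and 497 to 720, 709 and 901 (0.77, SE 0.22, adjusted p = 0.0144), but was not called by edgeR (adjusted p = 0.0873), with library totals, in males alone, or without Control replicate 1 or STREP replicate 3 (log2 0.63 and 0.65). Jun, Myc and Srebf1 had log2 fold changes of 0.11, 0.23 and 0.27 and were not called. FBXW7 is known to act on these proteins and not on their RNA.

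Of 15 polarity genes around Insc, 1 rose. Gnai1, a Gαi subunit, had 659, 627 and 562 normalised counts in Control and 1192, 1055 and 911 in STREP animals (log2 fold change 0.77, SE 0.18, DESeq2 adjusted p = 0.0014), and was called in all 6 omissions but not with library totals (adjusted p = 0.135). Gpsm2, which encodes LGN, the partner of Insc, had 2123, 1772 and 2206 normalised counts against 1865, 2001 and 2087, with a log2 fold change of -0.04 (95% interval -0.33 to 0.26).

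Of 8 genes with a von Willebrand A domain, 1 fell. Vwa5b1 had 165, 152 and 169 normalised counts in Control and 66.6, 47.5 and 76.3 in STREP animals (log2 fold change -1.36, SE 0.36, DESeq2 adjusted p = 0.00789), but it was not called by edgeR (adjusted p = 0.101), in males alone, or without Control replicate 1 or 3 (-1.35 and -1.33). Vwa3b, the closest relative of Vwa3a, had a log2 fold change of -0.20 (95% interval -0.53 to 0.13).

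Of 7 EF-hand genes tested beside Capsl, 1 fell. Calml4, a calmodulin-like light chain of MYO7B in brush border cells, had 6898, 7577 and 8097 normalised counts in Control and 4287, 4669 and 5782 in STREP animals (log2 fold change -0.62, SE 0.15, DESeq2 adjusted p = 0.00369). It lay close to the 1.5-fold threshold and was not called by edgeR (adjusted p = 0.0641), with the STREP replicates 1 and 2 summed, or without Control replicate 3, STREP replicate 1 or STREP replicate 2 (-0.56, -0.53 and -0.58). Caps2 had a log2 fold change of -0.52 (95% interval -1.22 to 0.18), with STREP values from 177 to 458 normalised counts that overlapped the Control range of 364 to 415. Caps was not analysed here.

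In the 3 remaining lists 0 genes were called, of 4 VSIG, 11 BANK1-related and 9 leucine-rich repeat genes tested. Vsig10 and Vsig10l, the named relatives of AC132671.2, had log2 fold changes of 0.44 (95% interval -0.26 to 1.14) and 0.21 (95% interval -0.26 to 0.69), and Vsig2 and Vsig4 were at 0. Blnk and Pik3ap1, adaptors of the same signalling route as Bank1, had log2 fold changes of 0.54 (95% interval -0.16 to 1.24) and -0.08 (95% interval -0.42 to 0.25). Lrtm1, the paralog of Lrtm2, had means of 1.84 and 2.13 normalised counts and was too low to test.

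**Figure D4:**
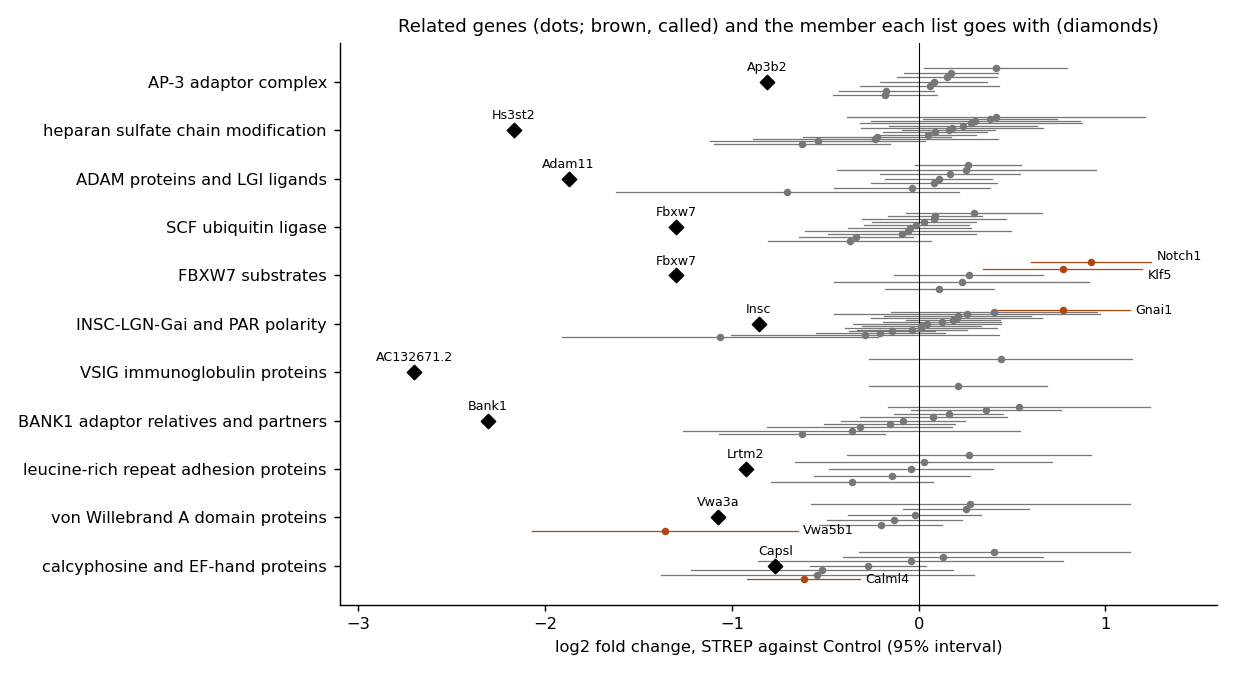
Log2 fold change, STREP against Control (horizontal axis), of 86 related genes with a mean of at least 100 normalised counts (dots with 95% intervals, brown where called) and of the gene that each list goes with (diamonds). Most dots lie around 0 to the right of the diamonds, and the 5 called genes are named.

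The difference between sexes was not the contrast that selected the genes, and sex was balanced over the groups. Selection for a clear difference between groups does favour genes with little spread within a group, and so a small difference between sexes. In a model with sex and group, 0 of 10 genes were called between females (n = 2) and males (n = 4), where 2.01% of 3734 genes with an adjusted p were. DESeq2 gave an adjusted p to 4 of the 10, the smallest 0.551 for AC132671.2, and edgeR to all 10, the smallest 0.814 for Fbxw7, and 0 of 10 had an unadjusted p under 0.05 with either tool. In females 8 of 10 were lower, by at most 0.32 on the log2 scale in Hs3st2 (95% interval -0.97 to 0.33). The share of all genes lower in females is not given here, so nothing is read from this count. Ap3b2 had the narrowest interval, with a log2 difference of 0.02 (-0.19 to 0.23), and Lrtm2 was the highest in females at 0.21 (-0.25 to 0.66). With library totals as size factors the median of genes with a mean of at least 100 moved to -0.28. On that scale Lrtm2 and Ap3b2 were at -0.08 and -0.27.

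**Figure D5:**
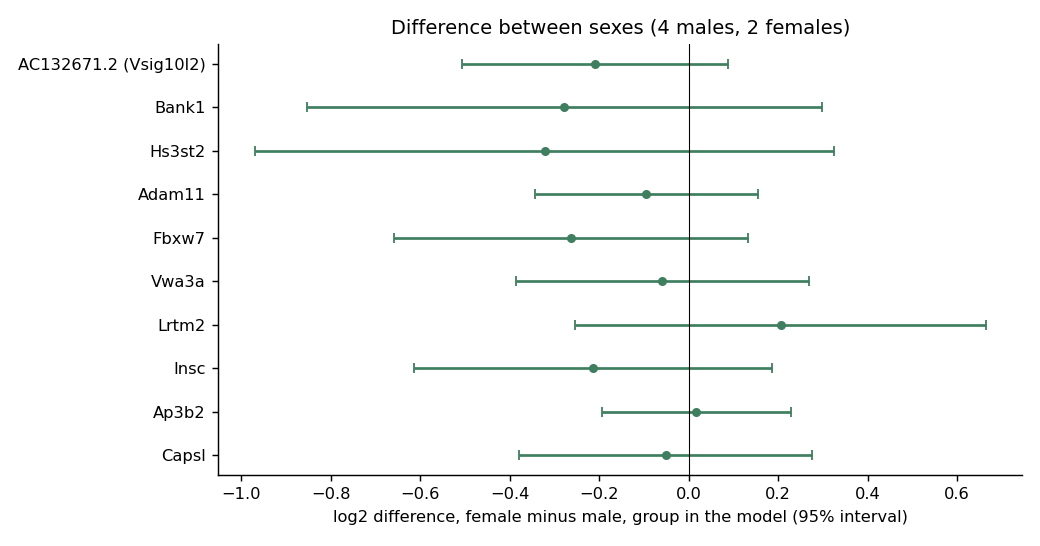
Log2 difference of each gene between females and males (horizontal axis, females minus males, with 95% intervals) from 4 males and 2 females, with group in the model. All 10 intervals include 0, and that of Ap3b2 is the narrowest.

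Whether the difference between STREP and Control animals itself differed between sexes was tested with an interaction term. It rests on 1 female in each group and on the difference that selected the genes, so a lack of calls says little. Of 10 genes 0 passed (smallest DESeq2 adjusted p = 0.999, 0 with an unadjusted p under 0.05, and 0 called by edgeR), against 0.259% of 13134 genes. The log2 ratio of STREP to Control was further below 0 in the females than in the males for 8 of 10 genes. It was -1.32 in females and -0.70 in males for Lrtm2, an interaction of -0.61 (SE 0.44), and -1.68 and -1.14 for Fbxw7. For Ap3b2 it was -0.79 and -0.82. The female of the STREP group is replicate 3, which was the lowest STREP animal for 8 of the genes. The 2 counts therefore rest on the same animal, and neither has its share over all genes beside it.

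The 5 genes whose profile over the 6 animals was nearest to the mean profile of the 10 were Pvalb, Slc27a2, Rd3, Ocm2 and Pcnx2. They were taken from 12121 genes by the root mean square distance of log2 levels, which was 0.11 for Pvalb and 0.17 for Pcnx2, and this choice again rests on the readout. Pvalb and Ocm2 encode calcium-binding proteins of the parvalbumin family, with means of 855 and 314 normalised counts for Pvalb and 1855 and 685 for Ocm2 in Control and STREP animals. Slc27a2, a fatty acid transporter and ligase, had 768 and 260.1, Rd3, known from photoreceptors, 1039 and 393, and Pcnx2 1101 and 348.

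The genes next to the 10 on their chromosomes were looked up by their order in RefSeq, as an alternative chosen after the data had been seen. Of 20 flanking genes 14 were in the table and 12 were tested, and DESeq2 called 0, with a median log2 fold change of 0.24. Among all genes tested, 1.37% were called lower and 1.87% higher, so nothing is read from 0 calls among 12 genes. Some of the 12 had few counts, such as Calcb and Il7r with Control means of 11.0 and 3.4 normalised counts. Otoa, the otoancorin gene beside Hs3st2, had a log2 fold change of 0.44 (adjusted p = 0.381). Cdon and Ddx25, which flank AC132671.2, had 0.49 and 0.07, and Cpeb1, beside Ap3b2, had -0.54 (adjusted p = 0.719).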

How the data were processed

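RNA was sequenced from the vestibular epithelium of 6 Long-Evans rats (3 Control, 3 STREP, 1 library per animal by the study's account). Per the labels, oligo-dT primed Smart-seq2 cDNA was made into Nextera XT libraries. The authors aligned reads with STAR 2.5.3a to the rat genome and quantified genes with RSEM 1.3.0, versions as in the submitters' processing notes. The deposited table holds expected counts per gene, not scaled between libraries, on the Rnor6.0 build. Non-whole entries numbered 0, so rounding changed nothing, and 0 columns were left unused. RSEM divides reads among similar genes, which makes near-identical copies uncertain, and overlapping genes cannot be told apart where strand is not given. Exon lengths were not used here, so levels are not compared between genes.

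The fits used DESeq2 1.42.0 under R 4.3.3 (Wald test, group only, median-of-ratios size factors, all rows fitted), with calls at an adjusted p under 0.05 and a fold change over 1.5. The tool and thresholds are those of the study, whose model formula and filters are not given in the sources used here. Sex was tested with group in the model, and by an interaction. P-values were adjusted by Benjamini-Hochberg over all genes, and an adjusted p left out by the independent filtering of DESeq2 stayed missing. Intervals are 1.96 SE. Marker sums were compared by an exact two-sided permutation test, which cannot go below 0.1 with 3 against 3. The fits were tested on simulated data, where DESeq2 made more false calls than its threshold allows and edgeR fewer than DESeq2. P-values set a difference against the spread between these samples as each test estimates it, and cover no other source of variation.

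Alternatives were edgeR 4.0.16 quasi-likelihood tests, a filter of at least 10 counts in 3 libraries, TMM factors, library totals, sex as a covariate, males alone, STREP replicates 1 and 2 summed (their titles share a number whose meaning is not given), and leaving out each animal. The chi-square of counts per degree of freedom was 51.65 for those 2 libraries, the smallest of the 6 pairs within groups. The others gave 55.32 to 178.6, so none agreed within counting error. This measure grows with depth, and STREP libraries were less deep than Control libraries, so its order does not rank likeness. The study states 3 treated animals, and these values alone do not settle whether the 2 titles mark separate animals. Replicates were numbered in order of deposition and pair no animals. The 10 genes, the gene lists and the tests were chosen with earlier results of these data known. Named genes are the 10, every called relative, the closest paralogs fixed by list, and the 5 nearest profiles among genes with a mean of at least 100. Gene names, neighbours and promoters came from RefSeq (GRCr8), whose coordinates were not mixed with those of the files. Protein sequences were not used here, and 1 B cell marker and the sum that holds it are not reported here.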

Additional observations from a re-analysis of the deposited data

How the results depend on the processing

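Across all genes, DESeq2 called 527 between STREP and Control. edgeR called 264 and DESeq2 with library totals 309, and leaving out 1 animal gave 424 to 517. The related genes called went from 5 to 2 with edgeR, 3 with library totals and 3 in males alone, and to between 3 and 6 when 1 animal was left out, with 3 without Control replicate 3. The log2 ratio of summed HC markers, 0.011, ranged from -0.20 without STREP replicate 3 to 0.11. The mean log2 over the neuron markers was 0.17, of opposite sign to the ratio of their sums, -0.14. With library totals, the female to male difference changed sign for Lrtm2 (-0.081) and Ap3b2 (-0.27). Over omissions it ran from -0.13 to 0.019 for Vwa3a and from -0.10 to 0.028 for Capsl. Between the groups, Insc and Capsl were not called with library totals, nor Lrtm2 in males alone or without Control replicate 3. Causes of these changes were not tested. No paired analysis was possible because the labels carry no replicate numbers. Depth limits Bank1 and Hs3st2 most, with 51 and 64 counts in their lowest libraries, and intervals cover counting and animal error only as far as 3 animals per group show it.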

Other observations

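Other genes that the study lists as lower in all of its models were read in the same table, with the caution that the list was partly chosen on these animals. The study marks most of its list as selective for HCs, but not Cfap126, Fam107b, Ntrk3, Osbpl11 and Rasal2. Beside the 10 genes, 25 were in the table and tested, of which 21 were called lower and 0 higher, with a median log2 fold change of -0.90. Bmp2, a secreted growth factor, had -1.76, Kcna10, a potassium channel gene, -1.56, and Ocm2, related to oncomodulin, -1.44. Cfap126, Dner, Rab3ip and Rasal2 had -0.52, -0.47, -0.51 and -0.48 and were not called. The study does list them as lower in its streptomycin comparison at the same thresholds, and it reports less DNER protein in crista HCs of streptomycin-treated rats. The reason for the difference in calls was not tested. Of the 10 genes described above, AC132671.2, Bank1, Hs3st2 and Adam11 had log2 fold changes of -2.70, -2.31, -2.17 and -1.87, each further below 0 than Bmp2, the lowest of the 25.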
